A study of Sus scrofa with 14 samples.

Results

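The 65 genes described here encode, in the cell nucleus, subunits of the mitochondrial respiratory chain and of ATP synthase, together with the synthase's inhibitor. They were taken by symbol from the gene list of the deposited counts of the pig mammary gland, as all symbols that begin with NDUFA, NDUFB, NDUFC, NDUFS or NDUFV (without the NDUFAF assembly factors), UQCR, COX4 to COX8 or ATP5, and SDHB, SDHC and SDHD. That list holds 30071 gene identifiers, of which 15983 carry a symbol. Of the 65 members, 30 belong to complex I, 3 to complex II, 5 to complex III, 15 to complex IV and 12 to complex V. NDUFA4 and NDUFA4L2 are counted with complex IV. Genes for 4 further subunits, SDHA, NDUFB5, UQCR11 and NDUFA7, carry no symbol in that list, received one only through the reference and are not members. No member carries the symbol of some other subunits, such as ATP5F1B, ATP5PD, COX6B1, COX6C, UQCRB, UQCRH and NDUFS7. CYC1 of complex III falls outside the rule. Counts and shares by complex therefore cover only the subunits listed. The gene for SDHA, the flavoprotein of complex II, was at 49.8 to 95.1 per 1000000 UMIs in the glands.

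Complexes I and II pass electrons from NADH and succinate to ubiquinone, complex III passes them on to cytochrome c, and complex IV, cytochrome c oxidase, passes them to oxygen. Complexes I, III and IV pump protons, and complex V, ATP synthase, uses the gradient to make ATP. The mitochondrial genome itself encodes the core proton-pumping subunits, so that each of these complexes except complex II is built from the products of both genomes. Milk secretion draws on this ATP supply for the synthesis of protein, fat and lactose.

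Nuclei of mammary glands from multiparous sows (Sus scrofa) had been sequenced at day 90 of gestation (G90), day 0 and day 20 of lactation (L0, L20) and 2 and 7 days post natural involution (PI2, PI7), with 2 glands per stage (n = 2). The series also holds spatial transcriptomics of 1 tissue section at G90 and 1 at PI2, and single cells of 1 milk sample at L0 and 1 at L20. Neither sections nor milk have replicates, so their comparisons carry no test, and their 95% Poisson intervals cover counting error only. A unique molecular identifier (UMI) stands for 1 captured RNA molecule, and levels are UMIs of a gene per 1000000 UMIs of the library (CPM). A level so defined depends on gene length and is compared between samples, not between genes. Kept nuclei held 18700704 to 53161349 UMIs per gland, the sections 42815421 and 17906403, and the milk samples 80995806 and 42948881. The gland library L20 replicate 2 stood apart in its cell makeup, with fewer epithelial and more fibroblast marker UMIs than each other gland. Libraries shared between 52 and 284 barcodes per pair, and 7241 of 161796 distinct barcodes occurred in more than 1 library, while all 2248 spots of the PI2 section have a barcode that the G90 section also has, as positions on the same kind of slide.

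Several complex IV subunits exist as pairs of isoforms encoded by separate genes. The promoters of 3 pairs are shown, since COX4I1, COX6A1 and COX6A2 were called between cell classes, COX4I2 had its highest levels in mural and fibroblast nuclei, and COX7A1 had the smallest unadjusted p of all members between L0 and G90. Each sequence covers 250 bases before to 50 after the gene start, 5′ to 3′ on the strand of the gene, read from the RefSeq genome of Sscrofa11.1. Capitals mark matches, on either strand, to the NRF1 motif (GCGC, any base, then TGCGC) or the ETS motif CCGGAAG.
COX4I1, chr6:3137570-3137869, minus strand: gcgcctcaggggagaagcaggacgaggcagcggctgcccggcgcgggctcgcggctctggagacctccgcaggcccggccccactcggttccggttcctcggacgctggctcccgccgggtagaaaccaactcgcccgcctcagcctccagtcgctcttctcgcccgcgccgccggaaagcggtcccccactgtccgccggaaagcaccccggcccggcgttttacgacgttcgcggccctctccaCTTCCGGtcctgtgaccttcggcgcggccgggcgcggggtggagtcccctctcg
COX4I2, chr17:35340249-35340548, plus strand: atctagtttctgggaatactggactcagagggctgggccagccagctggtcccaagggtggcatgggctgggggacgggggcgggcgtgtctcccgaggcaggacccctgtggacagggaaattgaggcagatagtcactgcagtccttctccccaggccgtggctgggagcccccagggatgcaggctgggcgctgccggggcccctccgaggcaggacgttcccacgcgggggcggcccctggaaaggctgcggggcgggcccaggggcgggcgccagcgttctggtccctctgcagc
COX6A1, chr14:40408350-40408649, plus strand: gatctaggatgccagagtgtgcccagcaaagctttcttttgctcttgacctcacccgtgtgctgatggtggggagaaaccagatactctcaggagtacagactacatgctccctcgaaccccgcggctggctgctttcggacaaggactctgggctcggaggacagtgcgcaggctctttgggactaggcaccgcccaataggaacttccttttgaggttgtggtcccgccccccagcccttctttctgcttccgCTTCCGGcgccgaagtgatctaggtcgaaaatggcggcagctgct
COX6A2, chr3:17108373-17108672, plus strand: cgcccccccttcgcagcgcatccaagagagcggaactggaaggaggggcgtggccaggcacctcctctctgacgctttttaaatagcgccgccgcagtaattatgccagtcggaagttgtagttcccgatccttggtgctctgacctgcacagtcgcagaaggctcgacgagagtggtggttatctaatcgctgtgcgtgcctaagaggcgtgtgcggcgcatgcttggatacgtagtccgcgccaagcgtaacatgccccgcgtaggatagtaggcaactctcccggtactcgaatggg
COX7A1, chr6:45520672-45520971, minus strand: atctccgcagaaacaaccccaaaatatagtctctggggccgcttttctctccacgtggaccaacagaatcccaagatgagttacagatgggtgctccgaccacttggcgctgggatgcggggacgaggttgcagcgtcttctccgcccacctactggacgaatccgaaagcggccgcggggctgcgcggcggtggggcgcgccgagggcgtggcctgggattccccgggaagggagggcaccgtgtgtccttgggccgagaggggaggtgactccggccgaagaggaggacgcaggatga
COX7A2, chr1:90696496-90696795, plus strand: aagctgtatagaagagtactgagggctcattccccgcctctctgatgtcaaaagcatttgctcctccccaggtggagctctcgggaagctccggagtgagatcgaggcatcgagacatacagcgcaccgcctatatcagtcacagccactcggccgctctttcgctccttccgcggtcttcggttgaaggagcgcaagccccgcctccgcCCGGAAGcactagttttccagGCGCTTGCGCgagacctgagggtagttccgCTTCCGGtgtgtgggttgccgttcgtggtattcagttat

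Among the 6, the windows of COX4I1, COX6A1 and COX7A2, the widely expressed isoforms, hold an ETS match, and the window of COX7A2 also holds the only NRF1 match. The windows of COX4I2, COX6A2 and COX7A1, known from lung, heart and skeletal muscle, hold neither. RefSeq gives COX4I1, COX4I2 and COX6A2 under other names, LOC100624067, LOC110257420 and LOC100626250, and their isoform identity rests on the symbol. All 65 members were placed on the RefSeq annotation. The NRF1 motif occurred in the windows of 11 members (16.9%, against 6.31% of 19559 promoters of the same length) and the ETS motif in those of 20 (30.8%, against 11%). The YY1 motif AAGATGGCG occurred in 3 (4.62%, against 1.47%). At least 1 of the 3 motifs was found in 29 members (44.6%, against 16.9%). A match describes letters in a window and says nothing about binding in these samples.

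In the glands the members together took 1966 and 1725 CPM (G90), 1744 and 1469 (L0), 1906 and 1554 (L20), 2135 and 1794 (PI2), and 2099 and 2215 (PI7). The 2 glands of L0 had the lowest mean, 1606 ± 195 CPM (SD, n = 2), and those of PI7 the highest, 2157 ± 82.4. Values of neighbouring stages overlapped, with 1845 ± 170 at G90, 1730 ± 249 at L20 and 1964 ± 241 at PI2. Of all member UMIs in the gland nuclei, complex I held 44.0%, complex II 9.0%, complex III 9.24%, complex IV 20.2% and complex V 17.6%. These shares belong to nuclei. In the section at G90, complexes I to V took 4058, 198, 740, 4187 and 3598 of the 12782 CPM of the members. The mitochondrial genome is transcribed outside the nucleus, and how much of its RNA each preparation of nuclei carried along was not measured. Its transcripts varied far more than the members between the sows of G90, of PI2 and of PI7. Between those of L0 and of L20 they varied about as much as the members. Its 13 protein-coding genes took 1.38% and 0.153% of UMIs in the sows of G90, 0.610% and 0.720% in L0 sows, 2.09% and 1.73% in L20 sows, 0.199% and 1.21% in PI2 sows, and 1.2% and 0.475% in PI7 sows. Per member UMI this made 0.886 to 11.13 mitochondrial UMIs, the lowest in G90 replicate 2 and the highest in L20 replicate 2.

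**Figure D1:**
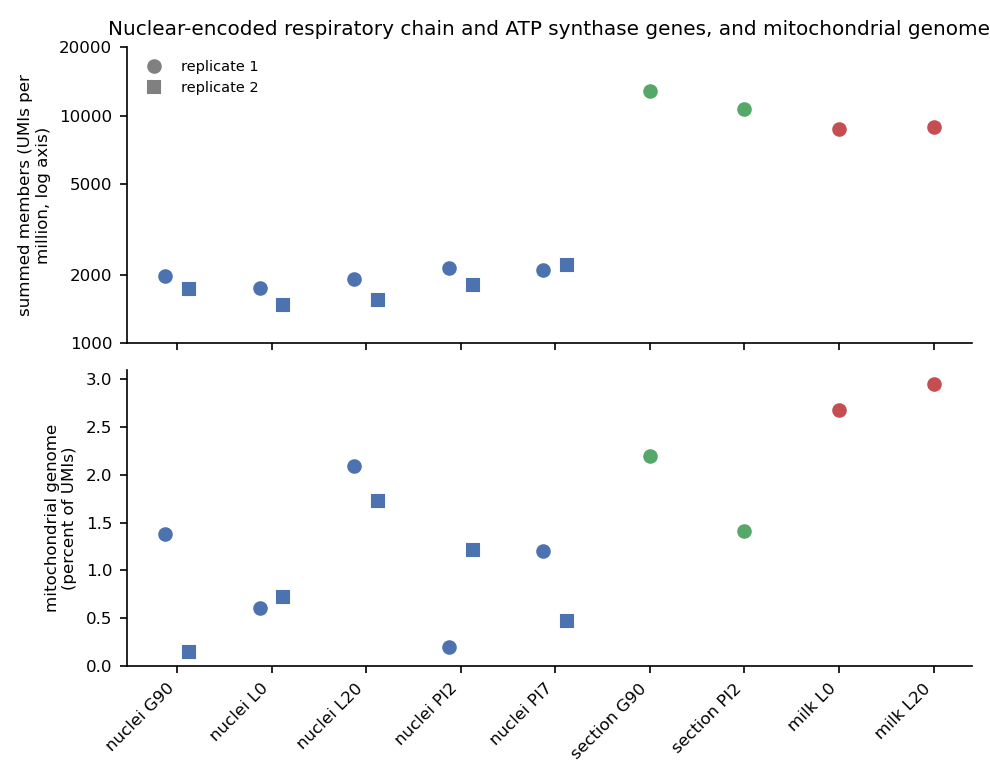
Summed members in CPM (65 genes, upper panel, log axis) and percent of UMIs from the 13 protein-coding genes of the mitochondrial genome (lower panel) in each library. Each point is 1 library, circles replicate 1 and squares replicate 2. The 10 glands lie between 1469 and 2215 CPM and the sections and milk samples between 8754 and 12782 CPM, while the mitochondrial share of the glands runs from 0.153% to 2.09%.

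Complex I was led in UMIs by NDUFS4, an accessory subunit needed for assembly of the complex. It stood at 127 and 252 CPM in the G90 glands, 245 and 192 in those of L0, 60.6 and 143 in those of L20, 143 and 66.9 in those of PI2 and 122 and 136 in those of PI7. Both glands of L0 lay above both of L20, while the sows of G90, of L20 and of PI2 differed from each other by more than that gap. The most even member was NDUFS1, the largest core subunit, which varied with a coefficient of variation of 12.2% over the 10 glands, from 74.4 to 110 CPM. NDUFB4, an accessory subunit, lay above its G90 values of 12.4 and 8.22 CPM in each later gland, 18.0 and 13.5 at L0 and up to 30.9 in PI7 replicate 2. The core subunit NDUFS8 and the accessory subunit NDUFA11 were near 0 in nuclei, with 35 and 17 UMIs over all glands, at most 0.279 and 0.203 CPM.

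Complex II holds the succinate dehydrogenase of the citrate cycle. SDHB, its iron-sulfur subunit, was at 114 and 115 CPM (G90), 99.7 and 103 (L0), 97.4 and 82.3 (L20), 140 and 117 (PI2), and 81.7 and 138 (PI7). SDHC, a membrane anchor, was at 33.9 and 23.5 CPM in the sows of G90, 23.3 and 22.2 in L0 sows, 34.7 and 35.3 in L20 sows, 28.1 and 32.9 in PI2 sows, and 45 and 30.4 in PI7 sows. The other anchor, SDHD, was at 24.1 and 19.7, 23.5 and 16.3, 36.7 and 24.0, 31.2 and 44.2, and 43.8 and 31.3 CPM at the same stages. SDHB was thus highest in PI2 replicate 1, and both anchors had their lowest gland at L0. In complex III, UQCRC2, a core protein, ranged from 47.7 to 86.0 CPM with a median of 74.1. UQCRC1, the other core protein, was uneven: 49.2 and 35.5 CPM in the G90 glands, 29.1 and 23.7 in those of L0, 77.3 and 23.8 in those of L20, 40.4 and 106 in those of PI2 and 35.7 and 34.7 in those of PI7. Its highest values came from single sows of L20 and PI2 whose stage partner was near the other glands.

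COX6A2 of complex IV, better known as the isoform of heart and skeletal muscle, had 26207 UMIs over all glands. Its levels were 87.7 and 101 CPM (G90), 130 and 68.9 (L0), 92.3 and 40.7 (L20), 134 and 83.5 (PI2), and 54.2 and 112 (PI7). The widely expressed isoform COX6A1 was at 15.3 and 5.23 CPM in the sows of G90, 12.9 and 7.81 in L0 sows, 19.8 and 16.9 in L20 sows, 16.3 and 12.2 in PI2 sows, and 33.0 and 26.1 in PI7 sows. Both glands of PI7 held more COX6A1 than all others, and COX6A2 showed no such order. The share of all genes highest in both glands of PI7 was not counted. RefSeq names the COX6A2 gene LOC100626250 and gives it 26486 bases, 5 exons and a longest transcript of 2726 bases. For COX6A1 these are 2211 bases, 3 exons and 554 bases. That COX6A2 here is the muscle isoform rests on its symbol alone and was not tested. The levels of these 2 genes were not compared with each other. COX7A1, a muscle and heart isoform, was at 6.04 and 4.61 CPM in the G90 glands, 14 and 9.07 in those of L0, 8.52 and 3.46 in those of L20, 11 and 7.38 in those of PI2 and 8.91 and 12.2 in those of PI7. Its widely expressed partner COX7A2 ranged from 9.09 to 21.3 CPM with a median of 13.4. COX7A2L, which takes part in supercomplexes, ranged from 22.1 to 70.1 CPM. The supernumerary subunits COX7B and COX8A lay between 11.3 and 25 CPM and between 6.10 and 21.6 CPM. COX4I1, the usual isoform of subunit 4, ranged from 5.12 to 22.6 CPM, and COX4I2, the isoform of lung and of oxygen-sensing cells, from 0.321 to 3.91. COX4I2 was the most uneven member with at least 100 UMIs, with a coefficient of variation of 71.9%. NDUFA4 was at 23.2 and 17.2 CPM (G90), 35.8 and 31.2 (L0), 22.8 and 29.2 (L20), 48.6 and 24.8 (PI2), and 34.5 and 53.4 (PI7). Both glands of L0 lay above both of G90 for NDUFA4 as for COX7A1. Its paralogue NDUFA4L2, known as a hypoxia-induced gene, stayed at 0.454 to 3.24 CPM, and COX6B2, known from testis, at 0 to 1.45.

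The complex V members were led by ATP5F1A, the alpha subunit of the catalytic head, at 90.4 and 65.3 CPM in the sows of G90, 37.0 and 36.3 in L0 sows, 71.2 and 76.1 in L20 sows, 46.3 and 76.0 in PI2 sows, and 115 and 56.4 in PI7 sows. ATP5F1D, the delta subunit, was at 19.6 and 11.06, 9.98 and 5.54, 36.7 and 10.6, 19.4 and 22.8, and 24.3 and 20.0 CPM at these stages. For both genes the 2 glands of L0 were below each of the other 8. ATP5IF1, the inhibitor that blocks ATP hydrolysis by the synthase when the gradient fails, was at 13.6 and 7.86 CPM in the G90 glands, 9.41 and 8.11 in those of L0, 8.80 and 12.5 in those of L20, 17.2 and 8.61 in those of PI2 and 24.2 and 18.1 in those of PI7. Both glands of PI7 held more ATP5IF1 than the other 8, at the closest 18.1 against 17.2 CPM. The share of all genes with this order was not counted.

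No member passed the test between stages in whole glands. In a gland sum, fewer cells of a type and less RNA per cell cannot be told apart. Genes were tested on UMIs summed per gland with edgeR's quasi-likelihood test and Benjamini-Hochberg adjustment over 22695 genes, 63 of them members, since NDUFA11 and NDUFS8 were too low. None of the 63 was called at an adjusted p under 0.05 between L0 and G90, L20 and L0, PI2 and L20, PI7 and PI2, or between lactation and the other stages, and neither was any other gene (0% of genes called in each of the 5). At an unadjusted p under 0.05 the counts over all genes were 1652, 2912, 817, 464 and 1247. DESeq2 called 397, 1157, 25, 19 and 118 genes in these comparisons, and no member in any of them. The spread between sows, in edgeR's common estimate over all genes, was a biological coefficient of variation of 0.555. Its part in the absence of calls was not tested. In simulated counts with that spread, L0 against G90, none of 100 genes changed 2-fold and none of 100 changed 4-fold was recovered, so that changes of these sizes could have been missed.

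The members with the smallest unadjusted p between L0 and G90 were all higher at L0, in the values given above. COX7A1 had a log2 fold change of 1.52 ± 0.70 (SE, edgeR adjusted p = 0.688), NDUFA4 of 1.14 ± 0.54 (adjusted p = 0.703) and NDUFB4 of 1.04 ± 0.54 (adjusted p = 0.765). For each, both glands of L0 were above both of G90. From L0 to L20 they were NDUFS4 with -1.72 ± 0.60 (adjusted p = 0.274), COX7A1 with -1.32 ± 0.69 (adjusted p = 0.456) and ATP5F1D with 1.28 ± 0.71 (adjusted p = 0.477). The change of NDUFS4 had the smallest p of any member, 0.0153 before adjustment. From L20 to PI2 they were ATP5F1C, the gamma subunit that turns in the catalytic head (0.98 ± 0.50, adjusted p = 0.825), COX6B2 (2.98 ± 1.59 on 93 UMIs over all glands) and NDUFA13 (0.89 ± 0.52). ATP5F1C stood at 32.6 and 35.2 CPM at L20 and at 67.5 and 43.6 at PI2. From PI2 to PI7 they were UQCRC1 (-1.44 ± 0.73, adjusted p = 0.998), COX6A1 (0.68 ± 0.57) and COX5A (-0.73 ± 0.66). Between lactation and the other stages they were COX6B2 (-1.38), ATP5MC1 (-0.53) and ATP5MG (0.44).

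Counted without a model, on the CPM scale, 26 of 62 members with at least 100 UMIs were lower in both glands of L0 than in both of G90 (41.9%, against 41.7% of 21244 genes), and 5 were higher (8.06%, against 13%). The 5 were ATP5MG, COX7A1, NDUFA4, NDUFB4 and UQCR10. From L0 to L20, 23 members were higher without overlap (37.1%, against 40.7%) and 5 lower (8.06%, against 12.6%), namely ATP5F1C, COX7A1, NDUFA4, NDUFS4 and SDHB. From L20 to PI2, 4 were higher (6.45%, against 7.04%) and 4 lower (6.45%, against 17.8%), and from PI2 to PI7, 15 were higher (24.2%, against 19.9%) and 4 lower (6.45%, against 6.65%). Set against the 8 other glands, the 2 of L0 were lowest for 11 members (17.7%, against 13.6%) and highest for none (against 3.91%). The share farthest from its background was that of members lower at PI2 than at L20, which was below it. The 11 were ATP5F1A, ATP5F1D, ATP5MC1, COX7B, NDUFB11, NDUFB7, NDUFS3, NDUFS5, NDUFV1, SDHC and UQCRFS1.

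Between stages the medians of the members and of all genes moved together with the scaling. With TMM factors the median log2 fold change of the members was 0.20 for L0 against G90 (all genes -0.17), -0.16 for L20 against L0 (all genes 0.24), 0.37 for PI2 against L20 (all genes 0.03), -0.10 for PI7 against PI2 (all genes 0.02) and -0.12 in lactation against the other stages (all genes -0.03). Scaled by total UMIs alone, the members' medians became -0.25, 0.36, 0.10, 0.24 and -0.29, and those of all genes -0.58, 0.77, -0.29, 0.39 and -0.17, so that the members' sign turned between G90 and L0, L0 and L20, and PI2 and PI7. The members' median minus that of all genes kept its sign, at 0.37, -0.40, 0.34, -0.12 and -0.09 with TMM and 0.34, -0.41, 0.39, -0.15 and -0.12 without. With TMM, 39, 28, 52, 23 and 12 of 63 members lay above 0 (61.9%, 44.4%, 82.5%, 36.5% and 19.0%), beside 42.4%, 58.1%, 51.5%, 51.2% and 47.5% of all genes. The L20 comparisons rest on a library that stands apart: in L20 replicate 2 epithelial markers summed to 371 CPM, against 1149 to 1952 in the other 9 glands, and fibroblast markers to 6036 CPM, against 992 in L20 replicate 1 and 83.8 to 1461 in the other 8. Without it the members' medians were 0.15 for L20 against L0 (all genes 0.00), 0.02 for PI2 against L20 (all genes 0.10) and 0.02 in lactation (all genes -0.13), so that the sign turned in the L20 against L0 and the lactation comparison, relative to all genes in all 3, and still no member was called. The part of the cell makeup in the members' values was not tested. All 13 genes of the mitochondrial genome lay above 0 from L0 to L20 (median 1.18) and below 0 from L20 to PI2 (median -1.19), and none of them was called.

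No member passed the test between stages in epithelial nuclei either, where the cell class was held by marker genes. A nucleus entered a class where its markers held at least 2 UMIs and at least 80% of all marker UMIs. The epithelial class held 26310 nuclei, from 212 in L20 replicate 2 to 7547 in G90 replicate 2. The members took 2012 and 1748 CPM of it (G90), 1728 and 1462 (L0), 1627 and 1782 (L20), 2201 and 1811 (PI2), and 2213 and 2138 (PI7). No member of 61 tested was called in any of the 5 stage comparisons by edgeR (0.0316% of 15806 genes called between L0 and G90, 0.0253% higher and 0.00633% lower, 0.0253% in lactation, all higher, and 0% in the others), nor by DESeq2. At an unadjusted p under 0.05 the counts over all genes were 2263, 2115, 688, 469 and 1918. COX4I2 and COX6B2 were too low to be tested here, as were NDUFA11 and NDUFS8.

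COX7A1 and NDUFA4 led the comparison of L0 with G90 again. In epithelial nuclei COX7A1 stood at 7.17 and 4.89 CPM at G90 and 13.9 and 10.3 at L0 (log2 fold change 1.34 ± 0.51, edgeR adjusted p = 0.276). NDUFA4 stood at 24.6 and 17.0 CPM at G90 and 34.2 and 31.7 at L0 (1.01 ± 0.39, adjusted p = 0.285). In both genes the glands did not overlap, but both were picked by their p in the same values. The share of all genes without overlap was not counted in epithelial nuclei. COX5A, a subunit on the matrix side of complex IV, stood at 135 and 109 CPM at G90 and 38.7 and 58.5 at L0 (-0.99 ± 0.46). From L0 to L20, NDUFS4 stood at 257 and 193, then 71.5 and 163 CPM (-1.36 ± 0.51, adjusted p = 0.290), and NDUFA9 at 44.8 and 36.2, then 18.8 and 26.5 (-1.21 ± 0.47, adjusted p = 0.310). NDUFA9, an accessory subunit at the joint of both arms of complex I, did not overlap either, with the same limit. ATP5F1D had a log2 fold change of 1.41 ± 0.60 (adjusted p = 0.349). The remaining comparisons were led by NDUFA9 (1.01), ATP5MK (1.13) and NDUFS6 (1.08) from L20 to PI2 (adjusted p = 0.880 for each), by UQCRFS1 (0.71), UQCRC1 (-1.52) and COX6A1 (0.81) from PI2 to PI7, and by ATP5MK (-0.72), NDUFAB1 (-0.49) and UQCRQ (-0.47) in lactation. The members' medians were 0.11, -0.03, 0.21, 0.03 and -0.11 in the 5 comparisons (all genes -0.05, 0.00, 0.12, -0.06 and -0.06). Without TMM factors they were -0.23, 0.31, 0.19, 0.20 and -0.33 (all genes -0.37, 0.33, 0.10, 0.10 and -0.26), which turned the sign in the comparison of L0 with G90 and of L20 with L0 for both. The members' median minus that of all genes was 0.16, -0.03, 0.10, 0.10 and -0.06 with TMM and 0.14, -0.03, 0.08, 0.10 and -0.07 without.

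Between cell classes of the same gland the members differed in places. Sums of 73 glands and classes with at least 20 nuclei were fitted together with the sow as a block, which allowed a test of endothelial, fibroblast, macrophage, T and NK and myoepithelial nuclei against epithelial nuclei, and, added after the data had been seen, of B and plasma nuclei (756 in all, 9 glands). The gate itself sets the marker sums of a class, so they are no check of it. Fibroblast markers, for instance, summed to 9524 to 21618 CPM in fibroblast nuclei and to 8.38 to 106 CPM in epithelial nuclei. The summed members were similar: 1872 ± 256 CPM in epithelial nuclei (SD, n = 10 glands), 1848 ± 366 in myoepithelial, 1604 ± 281 in fibroblast, 1831 ± 428 in endothelial, 1900 ± 380 in macrophage and 1739 ± 318 in T and NK nuclei, and 1861 ± 210 in B and plasma nuclei (n = 9). The mitochondrial genome was less even, at a mean of 0.747% of UMIs in epithelial, 1.98% in endothelial, 2.93% in macrophage, 2.27% in T and NK, 1.45% in fibroblast and 0.555% in myoepithelial nuclei. Of its 13 genes, 12 were called higher than in epithelial nuclei in endothelial and in macrophage nuclei, 11 in T and NK and 2 in fibroblast nuclei, and 3 were called lower in myoepithelial nuclei. Median UMIs per nucleus were 2455.5 in epithelial, 1625 in endothelial, 2039 in fibroblast, 1741 in macrophage, 967 in T and NK and 1387 in myoepithelial nuclei. The part of free RNA in the class values was not tested.

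COX4I2 had 19 UMIs in epithelial nuclei and was too low to be tested there, so it passed the low-count filter through the classes where it is higher, and it is left out of the next counts. Of the other 58 members tested between classes, 10 were called in endothelial, 4 in fibroblast, 6 in macrophage, 6 in T and NK and 4 in myoepithelial nuclei. The same test called 39.9%, 41.7%, 40.5%, 44.4% and 22.5% of all 13761 genes. Higher than in epithelial nuclei were 7, 0, 1, 1 and 1 members (of all genes 21.1%, 22.5%, 20.2%, 22.8% and 9.82%), and lower were 3, 4, 5, 5 and 3 (18.8%, 19.1%, 20.4%, 21.6% and 12.7%). In each class and in each direction the share of members called was below that of all genes. The median log2 fold changes of the members were -0.03, -0.19, -0.10, -0.30 and -0.24, beside 0.00, -0.02, -0.05, 0.01 and -0.21 over all genes. With COX4I2, called higher in endothelial, fibroblast and T and NK nuclei, the counts were 11, 5, 6, 7 and 4, and the counts under other settings include it. The split of higher to lower calls, 8 to 3, 1 to 4, 1 to 5, 2 to 5 and 1 to 3, moved with the tool and with the genes counted, while no call named in these 5 classes changed sign. With DESeq2 it was 16 to 2 in endothelial, 3 to 4 in fibroblast, 5 to 3 in macrophage, 2 to 5 in T and NK and 2 to 0 in myoepithelial nuclei, while of all genes 27.9%, 29.2%, 30.2%, 29.2% and 19.6% were called higher and 14.3%, 14.8%, 14.7%, 18.4% and 5.09% lower. With the mitochondrial genome left out it was 3 to 8, 1 to 9, 0 to 13, 2 to 22 and 0 to 7, where 17.1%, 19.2%, 15.0%, 16.9% and 8.51% of all genes were called higher, 27.3%, 26.1%, 31.7%, 32.3% and 23.4% lower, and their medians were -0.19, -0.17, -0.33, -0.28 and -0.41. Scaled by total UMIs without TMM factors, it was 8 to 3, 1 to 4, 2 to 3, 2 to 3 and 1 to 1, with 39.9%, 41.9%, 39.0%, 44.6% and 18.8% of all genes called. Single sows moved the counts too, while 36.8% to 46.7% of all genes were called in endothelial, 38.2% to 47.4% in fibroblast, 37.9% to 45.3% in macrophage, 40.9% to 46.9% in T and NK and 19.6% to 28.9% in myoepithelial nuclei, above the share of members each time. Without G90 replicate 1, L20 replicate 1 or PI2 replicate 1, 7 endothelial calls were made in each case, and fibroblast calls were 9 without L0 replicate 1 and 11 without PI2 replicate 2. Macrophage calls were 11 without L0 replicate 1 or PI2 replicate 2, 10 without PI2 replicate 1 and 3 without PI7 replicate 2, and myoepithelial calls 2 without PI7 replicate 2. T and NK calls were 15 and 14 without L0 replicate 1 and 2, 11 without L20 replicate 1, and 18 and 17 without PI2 replicate 1 and 2. In B and plasma nuclei 3 of the 58 members were called (32.8% of all genes), 1 higher (16.5%) and 2 lower (16.3%), and the median of the members was -0.22 (all genes -0.09). NDUFS4 was lower (-0.66 ± 0.25, edgeR adjusted p = 0.0362, 7 of 9 glands), as was NDUFB7 (-2.81 ± 1.06, adjusted p = 0.0327, 9 of 9 glands, on 1 UMI), and NDUFA4L2 was called higher on 7 UMIs (2.27 ± 0.74, adjusted p = 0.0132), though it was higher in 3 and lower in 5 of 9 glands, with 0 UMIs in both glands of G90 and of L0. Of its UMIs 4 came from PI7 replicate 2, without which it was too low to be tested, as without L20 replicate 2, and its call was lost without PI2 replicate 2. COX6A2 stood at a median of 124.3 CPM there, higher than in epithelial nuclei in 8 of 9 glands, and was not called (0.28 ± 0.23, adjusted p = 0.367). NDUFB7 and NDUFS4 lost their call without PI7 replicate 1 and with DESeq2. Counted with COX4I2, the 4 calls became 9 without L0 replicate 1 or L0 replicate 2, 11 without PI2 replicate 1, 2 without L20 replicate 2 or PI7 replicate 2 and 1 without PI7 replicate 1. Members left out of this fit for low counts were ATP5MC3, COX6B2, COX7A1, NDUFA11, NDUFS8 and UQCR10.

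COX4I2 was near 0 in epithelial nuclei and higher in fibroblast and mural nuclei. Its levels are given as a description without a fold or a p, for the reason given above. In fibroblast nuclei it stood at 8.66 and 14.5 CPM in the sows of G90, 3.43 and 0 in L0 sows, 26.3 and 4.34 in L20 sows, 7.63 and 0 in PI2 sows, and 4.65 and 1.43 in PI7 sows, from 109 UMIs in all. In epithelial nuclei it ran from 0 to 0.819 CPM with 19 UMIs in all. Fibroblast nuclei were higher in 8 of 10 glands. Endothelial nuclei ran from 0 to 4.34 CPM on 15 UMIs and T and NK nuclei from 0 to 7.54 on 6 UMIs. The highest level was in mural nuclei, the class of pericytes and vascular smooth muscle, at 120 to 154 CPM in the 3 glands with at least 20 such nuclei. Pooled over glands, 25 UMIs made 91.3 CPM in mural nuclei (95% Poisson interval 59.1 to 135), against 5.98 in fibroblast and 0.251 in epithelial nuclei, and the mural class had too few glands for a test. Mural markers summed to 4592 to 5710 CPM in mural nuclei, 161 to 389 CPM in fibroblast, 13 to 47.6 in endothelial and 4.14 to 33.2 in epithelial nuclei, and their part in the fibroblast value was not tested. With sums of at least 5 nuclei, a choice made after seeing the data, 19 members not including COX4I2 could be tested in mural and adipocyte nuclei. In mural nuclei 5 were called lower and none higher (42.1% of 7993 genes called, 9.62% higher and 32.5% lower): NDUFS1 (-1.43 ± 0.41), NDUFA9 (-1.25 ± 0.50), COX5A (-1.11 ± 0.43), SDHB (-0.96 ± 0.36) and COX6A2 (-0.91 ± 0.38). In adipocyte nuclei 3 were called lower and none higher (32.1% of genes called, 7.12% higher and 25% lower): COX7A2L (-1.36 ± 0.48), COX5A (-1.26 ± 0.45) and COX6A2 (-0.99 ± 0.40). The median of all genes was -0.64 in mural and -0.55 in adipocyte nuclei. COX4I1 was higher in T and NK nuclei (1.06 ± 0.32, adjusted p = 0.00503), with a median of 23.7 CPM over the glands against 9.79 in epithelial nuclei, in 6 of 10 glands. Its level in the sections was 66.7 (G90) and 156 (PI2) times that in the glands, and the part of the counting in its values was not tested.

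The genes named COX6A1 and COX6A2 differed in opposite directions between endothelial and epithelial nuclei. They span 2211 bases (COX6A1) and 26486 bases (COX6A2). That the gene named COX6A2 is an isoform of subunit 6A rests on its symbol and was not tested. Of the other endothelial calls besides COX4I2, COX8A, NDUFA2, ATP5MC1, ATP5IF1 and NDUFB11 (1705 to 2951 bases) and NDUFS3 (5734) were higher. NDUFS1 (38088) and NDUFA6 (5248) were lower. Ribosomal protein UMIs made 0.647% in endothelial and 0.464% in epithelial nuclei. The part of gene span in these calls was not tested. COX6A1 stood at 23.2 and 15.8 CPM in the G90 glands, 30.6 and 59.5 in those of L0, 112 and 27.9 in those of L20, 31.8 and 19.3 in those of PI2 and 47.6 and 47.3 in those of PI7 in endothelial nuclei. In epithelial nuclei it stood at 11.14 and 4.25, 11.07 and 7.32, 11.9 and 14.3, 15.2 and 9.57, and 28.4 and 20.2 CPM. Endothelial nuclei were higher in 10 of 10 glands (log2 fold change 1.55 ± 0.27, edgeR adjusted p = 1.59e-06). COX6A2 was lower in endothelial nuclei in 10 of 10 glands, with a median of 55.3 CPM (24.2 to 131) against 91.8 (50.7 to 139) in epithelial nuclei (-0.68 ± 0.20, adjusted p = 0.00385). It was also lower in fibroblast nuclei in 10 of 10 glands (-0.67 ± 0.20, adjusted p = 0.00395) and in macrophage nuclei in 8 of 10 (-0.63 ± 0.23, adjusted p = 0.0222).

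Among the subunits of complex I, NDUFA6, an accessory subunit, was called lower than in epithelial nuclei in 4 classes. It had a median of 24.1 CPM (17.8 to 33.5) in epithelial nuclei, 7.07 (0 to 18.1) in T and NK, 3.06 (0 to 64.0) in macrophage, 12.1 (6.04 to 23.7) in endothelial and 12.6 (0 to 30.9) in fibroblast nuclei. The log2 fold changes were -1.59 ± 0.40 in T and NK (adjusted p = 0.000682, lower in 10 of 10 glands), -1.20 ± 0.42 in macrophage (adjusted p = 0.0160), -0.91 ± 0.31 in endothelial (adjusted p = 0.0137) and -0.86 ± 0.30 in fibroblast nuclei (adjusted p = 0.0166). NDUFA5 had a median of 29.9 CPM (18.3 to 50.8) in epithelial and of 14.1 (0 to 27.8) in macrophage nuclei. It was lower in macrophage (-1.23 ± 0.36, adjusted p = 0.00403) and in fibroblast nuclei (-0.79 ± 0.27, adjusted p = 0.0133), in 9 of 10 glands each. NDUFA9 was lower in T and NK nuclei (median 23.2 against 38.7 CPM, -0.79 ± 0.26, adjusted p = 0.00823, 8 of 10 glands). NDUFS4 was lower in macrophage (-0.84 ± 0.24, adjusted p = 0.00287) and in T and NK nuclei (-0.56 ± 0.22, adjusted p = 0.0306), in 9 of 10 glands each. NDUFAB1, which is also the mitochondrial acyl carrier protein, was lower in macrophage nuclei (-0.88 ± 0.33, adjusted p = 0.0231). NDUFS1 was lower (-0.57 ± 0.20, adjusted p = 0.0206) and NDUFB11 higher (1.02 ± 0.36, adjusted p = 0.0173) in endothelial nuclei.

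Over the 5 classes, complex I had 15 calls in 140 tests of a member in a class (10.7%), complex II 0 in 15, complex III 1 in 20, complex IV without COX4I2 8 in 60 (13.3%) and complex V 6 in 55 (10.9%), beside 37.8% for all genes, and the difference between complexes was not tested. COX5A was lower in fibroblast nuclei (-0.76 ± 0.22, adjusted p = 0.00325), with a median of 49.8 CPM against 89.2 in epithelial nuclei. UQCRFS1, the Rieske iron-sulfur protein of complex III, was lower in T and NK nuclei (-0.88 ± 0.34, adjusted p = 0.0302), the only call of that complex. In complex V, ATP5MC1, which encodes a subunit of the membrane ring, was higher in endothelial (0.90 ± 0.33, adjusted p = 0.0238) and lower in T and NK nuclei (-1.53 ± 0.55 on 10 UMIs, adjusted p = 0.0181). ATP5IF1 had a median of 19.3 CPM (13.8 to 47.6) in endothelial against 10.6 (5.25 to 24.3) in epithelial nuclei and was higher in 9 of 10 glands (0.90 ± 0.29, adjusted p = 0.00952). ATP5F1A was higher in macrophage nuclei in 8 of 10 glands (0.80 ± 0.27, adjusted p = 0.0129). In myoepithelial nuclei, the peripheral-stalk genes ATP5PF (-1.36 ± 0.42, adjusted p = 0.0108, 15 UMIs) and ATP5PB (-1.09 ± 0.34, adjusted p = 0.0120, 22 UMIs) were lower, as was NDUFB8 (-0.89 ± 0.34, adjusted p = 0.0467), each in 8 of 10 glands. NDUFA4L2 was called higher there (1.93 ± 0.72, adjusted p = 0.0427), though on 7 UMIs, and it was higher in 4 and lower in 4 of 10 glands. It was too low to be tested without L20 replicate 2 or PI7 replicate 2 and lost its call without L0 replicate 1, L0 replicate 2 or PI2 replicate 2. Among these calls, COX6A1 in endothelial, NDUFA5 in macrophage and NDUFA6 and NDUFA9 in T and NK nuclei passed under all alternatives with an adjusted p in which they were tested. COX8A, NDUFS3 and NDUFA2, all called higher in endothelial nuclei (0.77, 0.68 and 0.79), passed in 3 of 16, 4 of 17 and 6 of 15, and endothelial NDUFB11 and ATP5MC1 in 7 of 14 and 7 of 16.

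**Figure D2:**
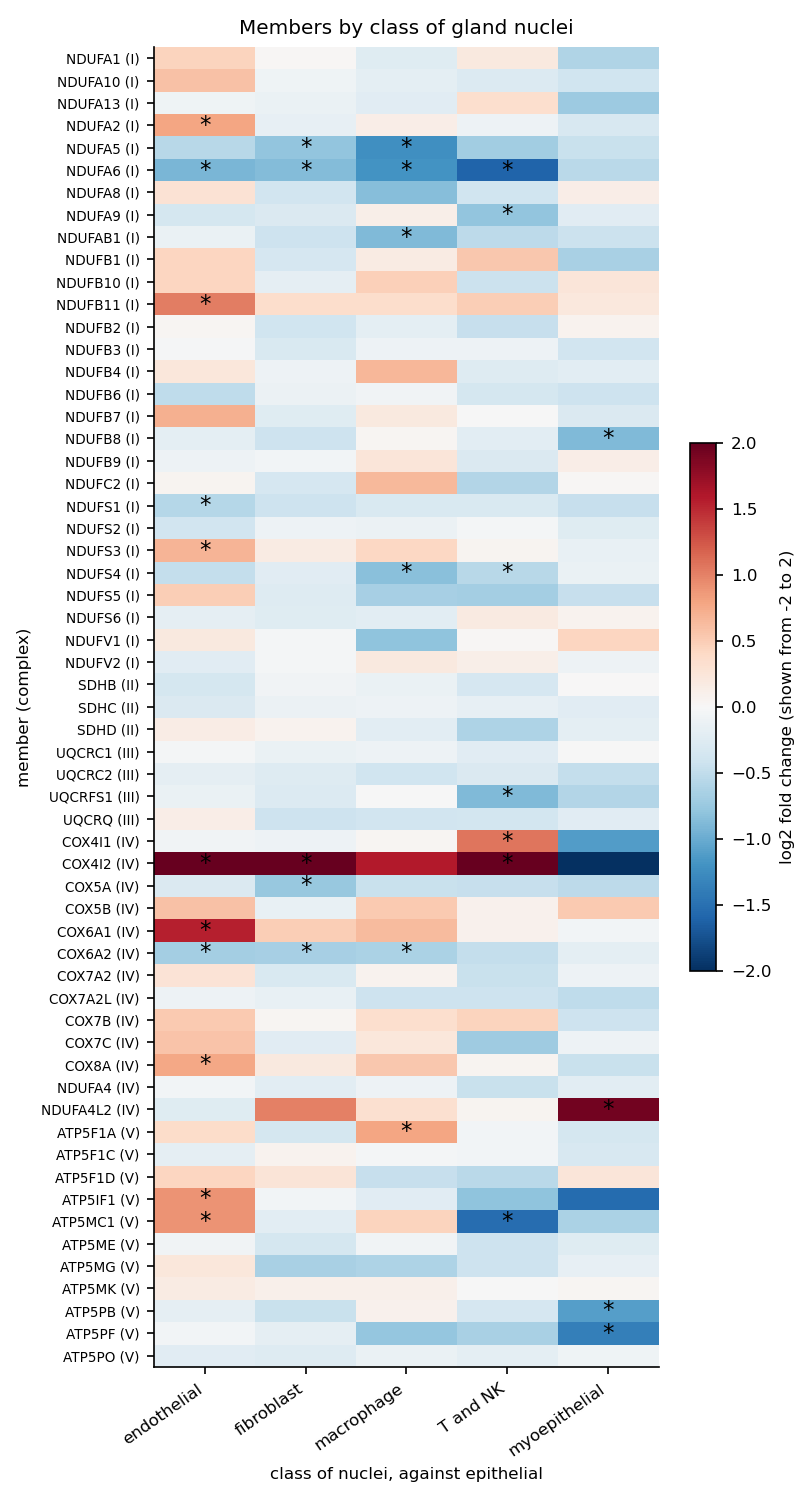
Log2 fold change of each of the 59 tested members (rows, complex in brackets) in 5 classes of gland nuclei against epithelial nuclei of the same sows, with the colour scale held at -2 to 2. Asterisks mark an edgeR adjusted p under 0.05, 11 in endothelial, 5 in fibroblast, 6 in macrophage, 7 in T and NK and 4 in myoepithelial nuclei, 1 each in endothelial, fibroblast and T and NK nuclei for COX4I2, whose fold changes stand on 19 epithelial UMIs. The endothelial column holds the most, and 7 of its 10 other than COX4I2 mark higher members.

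The assays captured the members very differently. Together they took 12782 CPM (12748 to 12816) in the section at G90 and 10655 (10607 to 10703) at PI2, and 8754 and 8887 CPM in milk at L0 and L20, against at most 2215 CPM in any gland library of nuclei. The mitochondrial genome made 1.72 and 1.33 UMIs per member UMI in the sections and 3.06 and 3.32 in milk. How far a member was short in nuclei went with the length of its gene. The genes span 1352 to 111221 bases in RefSeq, with a median of 6893. The 11 members of at least 20000 bases held 42.8% of the member UMIs of the glands (33.7% to 54.4% by gland), but 9.15% and 8.55% in the sections and 11.4% and 10.3% in milk. Across members, the Spearman coefficient of gene span with the gland level was 0.66 (65 members) and with the ratio of section to gland at G90 -0.76 (62 members), a description over genes that share libraries and are not independent replicates.

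At G90 the section level was a median of 1.46 times the mean gland level for the 11 longest members and 23.9 times for those under 5000 bases. At PI2 these medians were 1.37 and 15.6, and for milk over glands 1.60 and 14.2 at L0 and 1.38 and 14.1 at L20. Among the longest, NDUFS4 was lower in the sections than in the glands, at ratios of 0.569 at G90 and 0.526 at PI2, and COX6A2 likewise at 0.578 and 0.575. COX4I1 was high in the sections, at 999.6 and 1364 CPM, and near 0 in milk, at 2.49 and 3.77 CPM. NDUFA11 stood at 168 and 119 CPM in the sections and at 0.0123 and 0 in milk, as near 0 as in nuclei. The sections had been counted by another program than nuclei and milk, and the part of the counting in these 2 genes was not tested. Several members overlap a gene on the other strand, such as UQCRC2 with PDZD9, ATP5PB with WDR77 and ATP5PF with GABPA, and the sources used here do not give the strand setting of the counting.

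**Figure D3:**
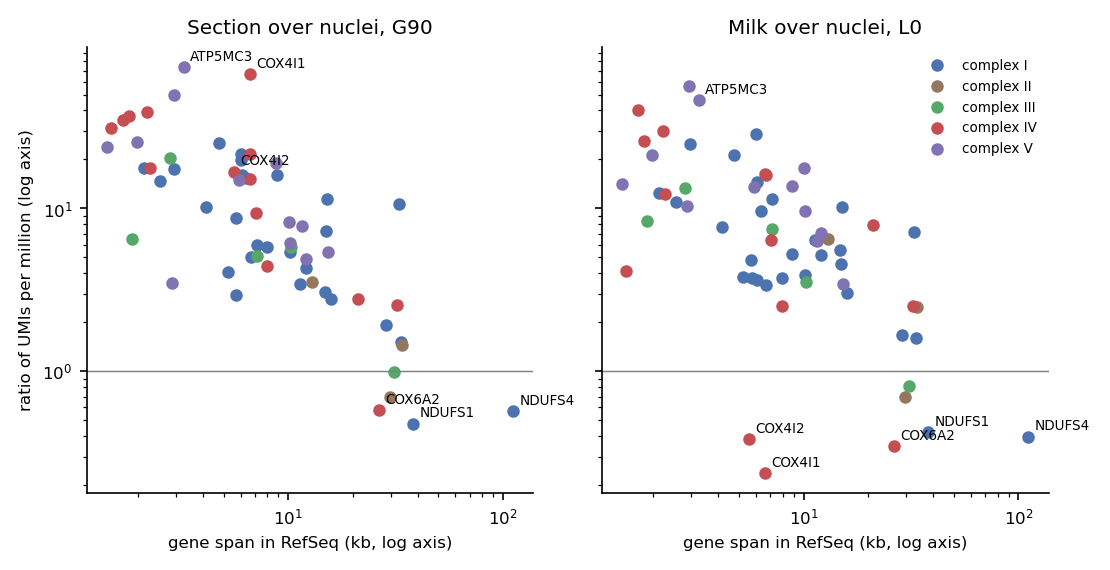
Ratio of a member's CPM in the section to its mean CPM in 2 gland libraries at G90 (left), and in milk to glands at L0 (right), against the span of its gene in RefSeq (both axes log), coloured by complex. Short genes lie well above the line at a ratio of 1 and NDUFS1, NDUFS4 and COX6A2 below it, while COX4I1 lies high on the left and lowest on the right.

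In the tissue sections most members were lower at PI2 than at G90, while COX4I2 and other members of complexes I, II, IV and V were higher. These are 2 sections, 1 per stage, with no replicate check. Of 64 members with at least 10 UMIs in both, 21 were higher at PI2 (46.3% of 12620 genes) and 43 lower, with a median ratio of 0.765 (all genes 0.947). By complex, the median ratio was 0.769 in complex I, 1.15 in complex II, 0.567 in complex III, 1.16 in complex IV and 0.563 in complex V. None of the 5 members of complex III, 2 of 12 of complex V and 9 of 30 of complex I were higher, against 2 of 3 of complex II and 8 of 14 of complex IV. Within complex IV the ratios ran from 0.426 (COX7C) to 3.98 (COX4I2). Of the subunits that are not members, UQCR11 of complex III went from 267 to 332 CPM. SDHA went from 121 to 125 CPM and NDUFB5 from 115 to 50.9, while NDUFA7 had 0 in both. The difference between complexes was not tested. More than 2-fold higher at PI2 were 3 members (all genes 13.6%): COX4I2 at 20.1 (18.8 to 21.5) and then 80.03 CPM (75.9 to 84.3), NDUFA4L2 at 8.29 and then 26.3, and NDUFS8 at 1.17 and then 8.49. COX7A1 went from 166.9 to 287.9 CPM, COX4I1 had a ratio of 1.36, and SDHC went from 41.9 to 82.9 CPM. More than 2-fold lower were 12 members (all genes 14.3%), among them ATP5PB (268.5 and then 99.5 CPM), NDUFC2 (276.6 and 105.7), COX7C (617.8 and 263.1) and ATP5F1C (224.6 and 99.7). The makeup of the sections moved too: mural markers summed to 286 CPM at G90 and 627 at PI2, epithelial markers to 1779 and 3097, myoepithelial to 639 and 2156, B and plasma to 1091 and 2951, macrophage to 533 and 1278, and caseins to 1050 and 46.6. Their part in the members' ratios was not tested.

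**Figure D4:**
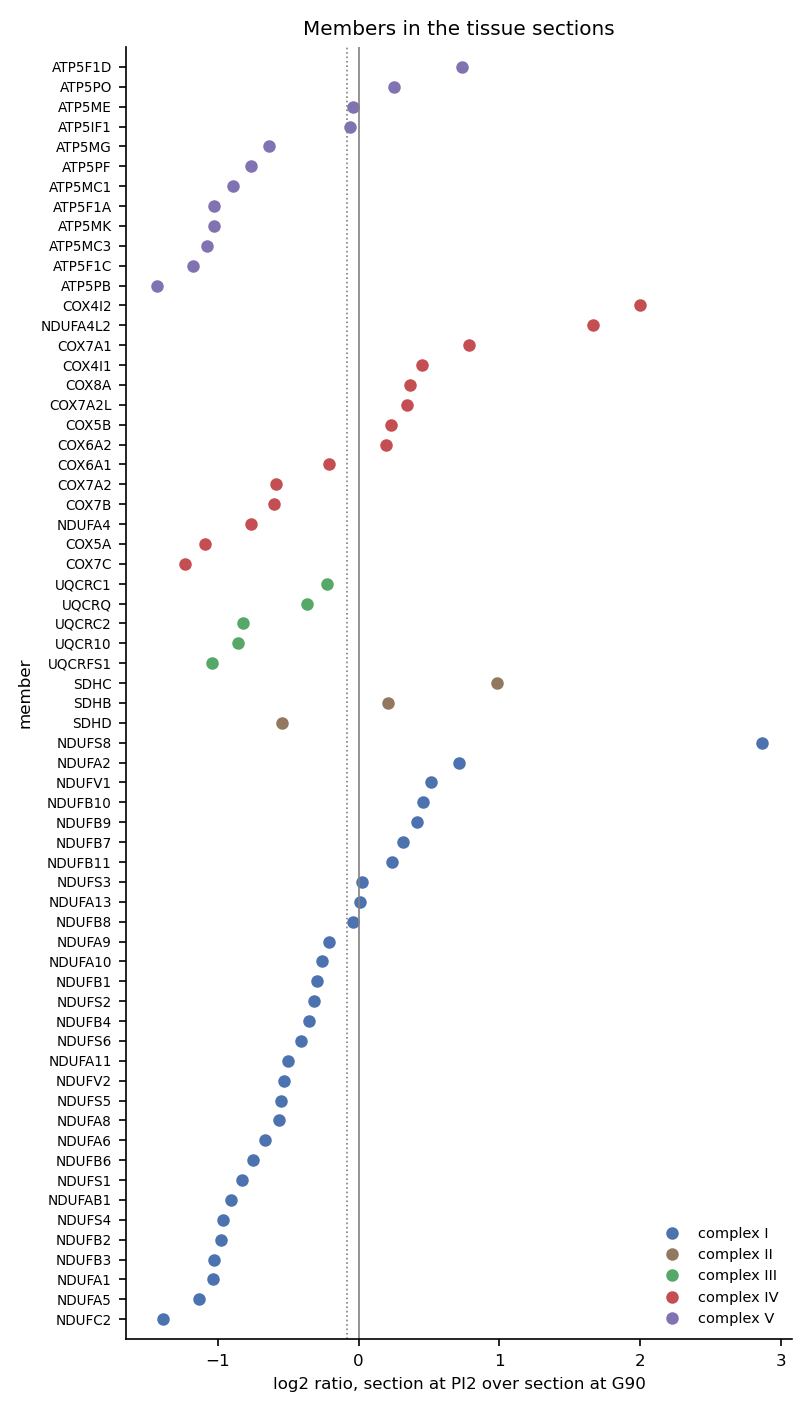
Log2 ratio of each of 64 members, section at PI2 over section at G90, ordered within its complex and coloured by complex. The solid line marks no difference and the dotted line the median of all genes. Complexes III and V lie mostly left of both lines, and COX4I2, NDUFA4L2 and NDUFS8 farthest to the right.

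Among the spots of a section chosen by markers, the summed members were highest in casein spots at G90 and in epithelial spots at PI2. Spots, which hold several cells, were ranked by the share of their UMIs in a marker list, and the top 10% were taken (473 at G90 and 225 at PI2). At G90 the members took 14080 CPM in casein spots, 12337 in epithelial, 11371 in fibroblast and 11394 in adipocyte spots, beside 12782 over all 4721 spots, so that only casein spots lay above the whole section. At PI2 they took 11104, 11699, 9363 and 10247 CPM, beside 10655 over all 2248 spots, and casein and epithelial spots lay above it. Casein and adipocyte UMIs made only 0.0227% and 0.0331% of the UMIs of their PI2 spots, at medians of 7488 and 4523 UMIs per spot. At G90 these shares were 0.236% and 0.140%. The PI2 casein and adipocyte spots were thus ranked on very few molecules, as were the G90 adipocyte spots, at a median of 1917 UMIs per spot. Median UMIs per spot ran in much the same order at G90, at 12660, 7002, 1919 and 1917, and 42.5% of fibroblast and adipocyte spots were the same. COX4I2 went the other way at PI2, with 111 CPM (84.4 to 144) in fibroblast, 94.3 in adipocyte, 80.02 in epithelial and 56.7 (47.2 to 67.4) in casein spots. COX7A1 at G90 stood at 117 CPM (109 to 126) in casein spots and 179 (165 to 193) in epithelial spots.

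In milk the summed members went down from L0 to L20 in epithelial cells and up in neutrophils, macrophages and T and NK cells, with 1 sample at each stage and no test. The L0 sample is taken as L0 from its source name and time label, while its title carries the letter that marks G90 in the other titles. Epithelial cells held 10503 CPM of members at L0 and 8148 at L20 (a ratio of 0.776), and 5 of 59 members were higher at L20 (19.7% of all genes). Neutrophils, the largest class, held 4217 and then 6991 CPM (1.66), and 57 of 61 members were higher (59.4% of all genes). Macrophages held 11087 and 14569 CPM, with 52 of 59 higher (42.1%), and T and NK cells 11297 and 12646, with 40 of 59 higher (48.2%). Among smaller or less certain classes, B and plasma cells, 37 and 34 in number, went down from 8285 to 4417 CPM. Cells that passed the mural gate, 264 and 563 with only 2 of the mural markers detected, went from 1951 to 1242. The cells with no class, 37.9% and 45.3% of those kept, went up from 8800 to 9835 CPM. The other gates held at most 8 cells per sample, and among these myoepithelial cells went up and endothelial cells down. Epithelial cells were far deeper at L0 than at L20, with medians of 18233 and 2968 UMIs per cell, and neutrophils alike, with 1253 and 1237. The mitochondrial genome moved the same way as the members, from 2.64% to 1.27% of UMIs in epithelial cells and from 2.09% to 3.13% in neutrophils. Casein UMIs, which neutrophils do not make, fell from 1.09% to 0.137% in neutrophils and were 18.6% and 22% in epithelial cells. The part of depth, mitochondrial share and free RNA in these values was not tested.

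Single members departed from their class. In epithelial cells COX7A1 went from 60.5 to 107.9 CPM, COX7C from 418 to 553 and NDUFS4 from 113 to 141, while NDUFC2 went from 358 to 170 and ATP5MC1 from 450 to 230. In neutrophils, whose energy is known to come mainly from glycolysis, 19 members were more than 2-fold higher at L20 (20.8% of all genes). They included ATP5MC3 (22.8 and then 77.2 CPM), NDUFA4 (56.5 and 185), NDUFS3 (14.8 and 47.6), SDHB (27.6 and 76.3) and the inhibitor ATP5IF1 (83.1 and 215). COX6A1 was level in neutrophils, at 395 and 406 CPM with overlapping intervals, and NDUFA4L2 was lower at L20, at 4.48 and then 1.17 CPM.

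**Figure D5:**
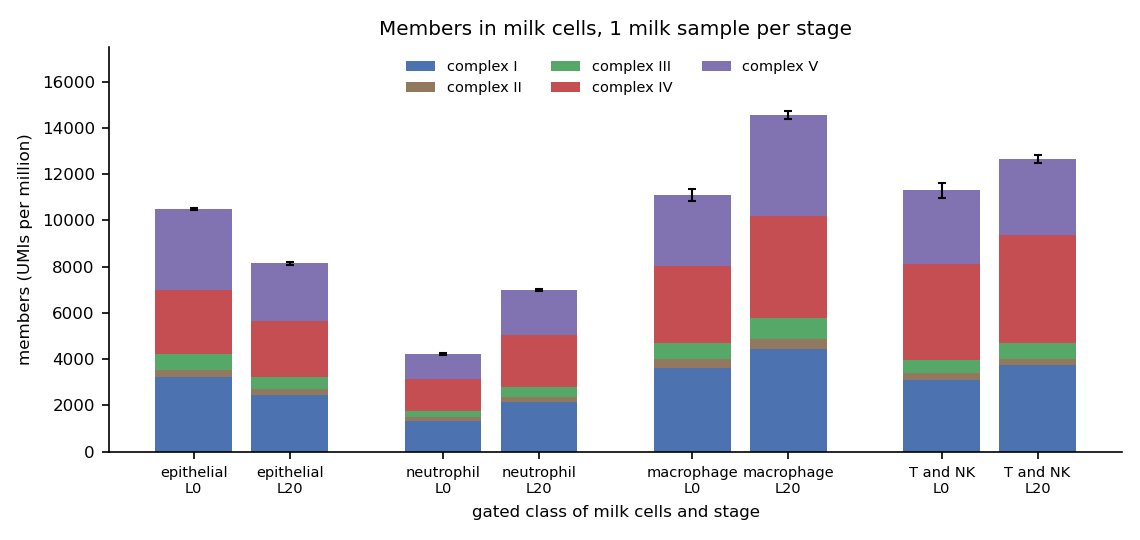
Summed members in CPM in 4 marker-gated classes of milk cells at L0 and L20, stacked by complex, with whiskers for the exact 95% Poisson interval of the total, which covers counting error only. The bar falls from 10503 to 8148 in epithelial cells and grows from 4217 to 6991 in neutrophils.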

How the data were processed

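Nuclei, milk cells and spots were counted by the authors, who deposited whole UMI counts per gene and barcode, not normalized: nuclei and milk by CeleScope v1.1.7 against the Sscrofa11.1 genome, sections with Space Ranger, whose version is 1.2.0 in the submitters' processing notes and another in the file header. The sources used here do not give the annotation release.

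Dropping barcodes with under 300 genes or over 25% of UMIs from the mitochondrial genome kept 126833 of 128233 nuclei and 32085 of 40990 milk cells. Doublets were not removed. Classes came from marker gates and not from clusters: 44229 nuclei passed one. UMIs were summed per gland, or per gland and class with at least 20 nuclei, and tested with edgeR 4.0.16 (quasi-likelihood, TMM, filterByExpr, R 4.3.3) over all genes, called at an adjusted p under 0.05. The class fit used the sow as a block, since its classes come from the same animal. In the stage fits a p-value sets a difference against the spread between the 2 sows of a stage, pooled over all stages. In the class fit it uses the spread of the class differences within the 10 sows. In both fits the estimate of the spread draws on all genes, so a p-value does not rest on the gene's own values alone. Sections and milk were described with exact Poisson intervals. The fits were tested on simulated data: with the spread of the class fit, fibroblast against epithelial, 72% of 82 genes changed 2-fold and 100% of 84 changed 4-fold were recovered over 11681 genes. The changed genes were drawn only from those above the median of the mean counts. All genes had the same spread, and no difference between sows or other classes was simulated. The recovery therefore does not cover members with low counts or the smaller classes.

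Alternatives were DESeq2 1.42.0, no low-count filter, unadjusted p with a log2 fold change over 1, stricter and no barcode filters, the mitochondrial genome left out, other blocks, a strict gate and each replicate left out. Sums with at least 5 nuclei, scaling without TMM and the test of B and plasma nuclei were added after the data had been seen. The members, marker lists and pathway lists were chosen with earlier results of these data known. Named members were, per comparison, up to 5 called in each direction by size or, with none called, the 3 with the smallest unadjusted p, besides complex II, the isoform genes, ATP5IF1 and the member with most UMIs of each complex. Members named for a section, milk or assay value outside this rule were chosen after their values were seen.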

Additional observations from a re-analysis of the deposited data

Results flagged for a closer look

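In milk, the summed members at L20 were 0.776 times those at L0 in epithelial cells and 1.66 times in neutrophils, so that the same comparison went in opposite directions in these 2 classes. With 1 sample per stage this difference was not tested.

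Some members that were called between classes lay on the other side in both glands of 1 or 2 stages. Where the class stood at 0, the epithelial level would give too few UMIs in that class to show a direction. At L0, pooled over its glands, NDUFS3 stood at 9.33 CPM in endothelial and 12.6 in epithelial nuclei, COX4I2 at 0 in endothelial and 0.273 in epithelial nuclei, and COX4I1 at 8.29 in T and NK and 9.55 in epithelial nuclei. At PI2, COX6A2 stood at 119.7 CPM in macrophage and 108.6 in epithelial nuclei. At L20, NDUFB8 stood at 37.5 CPM in myoepithelial and 26.3 in epithelial nuclei. In B and plasma nuclei NDUFA4L2, called higher on 7 UMIs, stood at 0 at G90 and at L0, with 2.00 and 0.910 CPM in epithelial nuclei, and at no stage were both glands higher. COX4I2 stood there at 0 at G90, with 0.246 CPM in epithelial nuclei. The differences between stages were not tested.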

How the results depend on the processing

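No member was called between stages, in glands or in epithelial nuclei, under any alternative with an adjusted p, each replicate left out included (0 to 0). At an unadjusted p under 0.05 with a log2 fold change over 1, the counts were 1 in glands from L0 to L20 (12.8% of all genes), and 2 from G90 to L0 and 3 from L0 to L20 in epithelial nuclei (13.1% and 12.7%). With the replicate number as a replicate block, 0 members were called in every stage comparison, and the numbers did not pair the samples, since the correlation of the deviations of same-numbered glands ran from -0.52 to 0.39. Between classes, without COX4I2, 10, 4, 6, 6 and 4 members were called in endothelial, fibroblast, macrophage, T and NK and myoepithelial nuclei. Counts under the other settings include COX4I2 where it was tested, and with it the main counts were 11, 5, 6, 7 and 4. They became 18 (endothelial) and 2 (myoepithelial) with DESeq2, 8 (fibroblast) and 14 (T and NK) with no filter on low counts, and 3, 2, 2 and 4 in the first 4 classes at an unadjusted p with that fold change. With the stricter barcode filter (500 genes, 5% mitochondrial UMIs) they were 8 in fibroblast, 10 in myoepithelial and 18 in T and NK nuclei, with every barcode 8 in fibroblast and 15 in T and NK, and with the mitochondrial genome left out 10, 13, 7 and 24 in fibroblast, macrophage, myoepithelial and T and NK nuclei. Without the sow block 2 endothelial and 1 fibroblast call were made, and without TMM factors 2 myoepithelial calls. The strict gate tested 25 members and called 3 endothelial, 2 macrophage and 2 T and NK members, and the myoepithelial class could not be fitted. Sums of at least 5 nuclei tested 19 members and called 3 in endothelial, 2 in fibroblast, 3 in macrophage, 1 in myoepithelial, 1 in T and NK, 3 in adipocyte and 5 in mural nuclei, classes with too few glands of 20 nuclei for the other settings. The share of members called was below that of all genes in all 56 combinations of class and setting and in all 50 with a replicate left out (B and plasma nuclei not counted), and for lower calls alone in 53 of the 56. In T and NK nuclei the share of lower calls was above that of all genes with no filter on low counts (20.0% against 15.4%), the stricter filter (32.1% against 28.6%) and the mitochondrial genome left out (37.3% against 32.3%). B and plasma nuclei, tested after the data had been seen, gave 4 calls, which became 13 with no filter on low counts, 9 with the stricter filter, 11 with every barcode, 14 with the mitochondrial genome left out, 2 without the sow block, 1 with the strict gate, 0 with sums of at least 5 nuclei and 1 to 11 with each replicate left out. The causes were not tested. With each replicate left out, the counts in the first 5 classes ranged from 7 to 11, 5 to 11, 3 to 11, 6 to 18 and 2 to 6. Of the values of named members under the alternatives with an adjusted p, 507 kept their direction and side of the threshold, 122 kept only the direction and 1 reversed, COX4I2 in B and plasma nuclei with the strict gate (log2 fold change -1.51). Leaving the mitochondrial genome and milk proteins out of the total gave 13083 and 10808 CPM in the sections at G90 and PI2 and 10502 and 9662 in milk at L0 and L20. Milk gave 9653 and 10885 CPM with the stricter filter and 8403 and 8250 with every barcode. In glands with at least 20 nuclei of a class, myoepithelial nuclei held 43471 to 180774 UMIs per gland, T and NK nuclei 21236 to 552086 and epithelial nuclei 907364 to 24721698, and the part of this depth in the calls was not tested.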

Other observations

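Of the genes that assemble or serve these complexes, smaller shares were called between cell classes than of all genes, a difference that was not tested. Of all genes, 39.9% were called in endothelial, 41.7% in fibroblast, 40.5% in macrophage, 44.4% in T and NK and 22.5% in myoepithelial nuclei. Shares of the assembly factors ran from 3.33% in T and NK to 23.3% in endothelial nuclei, and those of the regulators were 20.0% in 4 classes and 0% in myoepithelial nuclei. Of 15 regulators tested, PPARGC1A, the coactivator of mitochondrial biogenesis, and MTERF1, a mitochondrial transcription termination factor, were called lower than in epithelial nuclei in endothelial, fibroblast, macrophage and T and NK nuclei (edgeR, adjusted p under 0.05). TFB1M was called lower in endothelial and macrophage nuclei, PPARGC1B higher in fibroblast and ESRRB higher in T and NK nuclei. Of 30 assembly factors, COX17, a copper chaperone of complex IV, was called higher in endothelial and macrophage nuclei, and 6 were called lower in endothelial nuclei: COX10, COX20, FOXRED1, NUBPL, TIMMDC1 and UQCC1. Lower were also ATPAF2 and NDUFAF2 in fibroblast, ATPAF1, ATPAF2 and NDUFAF2 in macrophage, NDUFAF3 in T and NK, and ATPAF1 and COA7 in myoepithelial nuclei, where COX18 was higher. Of 13 carriers and partners, the uncoupling protein UCP2 was called higher in endothelial, macrophage and T and NK nuclei, and ETFA and VDAC3 in fibroblast nuclei.

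Of 14 genes of the citrate cycle, OGDH was called lower in endothelial, fibroblast and T and NK nuclei, CS in fibroblast and SUCLG2 in macrophage nuclei, and FH higher in T and NK nuclei. Of 58 mitochondrial ribosomal protein genes, 3 were called higher and 1 lower in endothelial, 1 higher and 7 lower in T and NK, and 2, 2 and 3 lower in fibroblast, macrophage and myoepithelial nuclei. Of 57 cytosolic ribosomal protein genes, 27 were called higher in endothelial nuclei (47.4%, the one share of these lists above that of all genes), and 7, 10, 6 and 8 lower in fibroblast, macrophage, myoepithelial and T and NK nuclei. No gene of these lists was called between stages in glands or epithelial nuclei.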
